A study of Mus musculus with 2 samples.

Results

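The Ifi200 (p200) genes form an interferon-inducible family that lies side by side on mouse chromosome 1. The family was described here in single cells of injured mouse quadriceps. By symbol, 10 members were sought (Ifi203, Ifi204, Ifi205, Ifi206, Ifi207, Ifi209, Ifi211, Ifi213, Mnda and Mndal), and 9 of them were among the 32285 genes of the count tables. The symbol Mnda was not listed; the reference gene table gives it as an older name of Ifi211, so no separate value exists for it. Aim2, Ifi202b, Ifi208 and Ifi214, other genes of the same family that were listed, are given beside the members but were not counted with them.

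Both groups were male wild-type (WT) C57BL/6J mice aged 14 weeks whose quadriceps was injected with BaCl2, a salt that kills myofibers and starts a sterile inflammation followed by regeneration. Mononuclear cells were collected 1 day or 3 days later, enriched at a density interface, sorted by light scatter, pooled from 5 mice per time point, frozen and thawed before 3′ single-cell RNA sequencing. Each day was 1 library, so days were compared without replicates, no test was made and no p-value is given. The lists of possible barcodes differed between the libraries (737280 on day 1 and 6794880 on day 3), and library chemistry and day cannot be told apart.

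The p200 proteins carry a HIN domain that binds double-stranded DNA, and most of them also carry a pyrin domain that recruits partner proteins. Aim2 pairs this sensor with Pycard (ASC) and Casp1 in the inflammasome, whereas p204, the product of Ifi204, has been linked to DNA-induced interferon production through STING and, in cultured myoblasts, to differentiation. Macrophages that clear damaged muscle take up large amounts of nucleic acid from dying cells, and type I interferon raises transcription of many genes of this family.

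In the GENCODE M21 annotation of GRCm38, the listed genes of the family lay within 680.9 kb of chromosome 1 (chr1:173350879-174031810), and all 13 protein-coding genes annotated entirely inside this span were family genes. From low to high coordinate, the members were Ifi206, Ifi213, Ifi209, Ifi207, Ifi204, Mndal, Ifi211, Ifi203 and Ifi205. All were on the minus strand except Ifi209, which was on the plus strand. Mndal (chr1:173849126-173942491) spanned Ifi211 and shared exon bases with Ifi203 on the same strand, so reads from shared exons cannot be assigned to either with certainty. The last 500 bases of the transcripts, where 3′ libraries take their reads, were also compared in windows of 90 bases. Ifi205 and Ifi211 shared 59.4% of these windows, Ifi209 shared 58.6% with Ifi214, Ifi213 shared 7.5% mostly with Ifi208, and Mndal shared 4.3% with Ifi211. None was shared for Ifi203, Ifi204, Ifi206 or Ifi207. Values of Ifi205, Ifi211 and Ifi209 are therefore the least certain of the family.

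RefSeq promoters (250 bases before to 50 after a transcription start, GRCm38.p6) were present for 8 of the 10 members, all but Ifi204 and Mnda. They were searched on both strands for the interferon-stimulated response element (ISRE, written as GAAA, any 2 bases, GAAA), the sequence through which type I interferon signalling acts on its target genes. The motif was found in 7 of these 8 members and in 3.99% of 27018 genes with a promoter. The ETS-IRF composite (GGAA, any 2 bases, GAAA) was found in 0 of the 8 members and 3.16% of genes, and the interferon-gamma activated site (TTCNNNGAA) in 0 of the 8 and 9.55% of genes. The ISRE and the composite cannot match at the same position, since their letters differ at the second base. The element is shown with 8 bases before and 12 after because most members repeat not only the motif but also the bases behind it. Capitals mark bases that match the motif, including the 2 free positions.
Ifi203: gagctgggGAAATCGAAAgctatgaacagt
Mndal: gagctgggGAAATCGAAAgctatgaacagt
Ifi205: aggccaggGAAATTGAAAgctatgaacaaa
Ifi211: aagccaggGAAATTGAAAgctatgaacgaa
Ifi207: tagccaggGAAATCGAAAattaagaacaaa
Ifi206: tctctgagGAAATCGAAAgctatgaacctt
Ifi213: tctctgagGAAATCGAAAgctatgaacctt
Ifi209: tctctgagtAAATCGAAAgagatgcactct
The 30 bases stood at chr1:173942506-173942535 for Ifi203, chr1:173880202-173880231 for Mndal, chr1:174031868-174031897 for Ifi205, chr1:173913062-173913091 for Ifi211, chr1:173741829-173741858 for Ifi207, chr1:173491337-173491366 for Ifi206 and chr1:173599324-173599353 for Ifi213, each on the minus strand, and at chr1:173630772-173630801 for Ifi209 on the plus strand. The motif began 35 bases before a start of Ifi203, 36 before a start of Mndal, 37 before Ifi211, 40 before Ifi206, 41 before Ifi207, 73 before Ifi213 and 134 before Ifi205. Ifi203 had another listed start, upstream of this element, whose window held no match. On the opposite strand, Ifi205 held another match within the 50 bases after its start and Mndal held one 54 bases before an alternative start. In Ifi209, the member without a full match, the closest stretch began 79 bases before the start and differed from the motif by 1 base, G1T, counted from 1 at the first base of the motif. Around the motif the promoters fell into groups. Over 134 aligned bases without gaps, Ifi206 and Ifi213 were 97.8% identical, Ifi203 and Mndal 86.6%, and Ifi205 and Ifi211 68.7%, whereas Ifi206 and Ifi205 were 36.6% identical. Ifi208, not a member, was 99.3% identical to Ifi206. The stretches of Ifi206 (chr1:173491325-173491458, minus strand) and Ifi213 (chr1:173599312-173599445, minus strand), the members with the largest differences between days, are shown with that of Ifi205 (chr1:174031856-174031989, minus strand), the member that was lower on day 3 in macrophage-like cells.
Ifi206: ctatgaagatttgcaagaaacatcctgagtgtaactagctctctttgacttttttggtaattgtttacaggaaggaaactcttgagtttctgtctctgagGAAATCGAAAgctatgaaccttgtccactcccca
Ifi213: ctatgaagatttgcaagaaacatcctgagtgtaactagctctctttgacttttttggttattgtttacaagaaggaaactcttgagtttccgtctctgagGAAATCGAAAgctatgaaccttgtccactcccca
Ifi205: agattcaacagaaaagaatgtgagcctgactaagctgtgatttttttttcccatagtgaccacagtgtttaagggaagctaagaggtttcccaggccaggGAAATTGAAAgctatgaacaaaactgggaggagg
A match describes the letters in this window and does not show that a factor bound there.

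After filtering there were 6735 cells on day 1 and 4627 on day 3, with medians of 9389 and 14548 UMIs (unique molecular identifiers, each counting 1 captured RNA molecule). The libraries shared 0 cell barcodes, and the mitochondrial limit removed 517 cells on day 1 and 2013 on day 3. Clusters were named from marker lists with the ending -like. Monocyte/macrophage-like clusters had all 15 of their markers, made up 44.6% of cells on day 1 (3004 cells) and 59.6% on day 3 (2756 cells), and came from different clusters on each day: mainly those led by Serpinb2 and Cd163 on day 1 and by Gpnmb, Fcrls and Ifit3 on day 3. The dendritic cell-like cluster, led by the MHC class II gene H2-Eb1, rested on 3 of 10 markers (402 and 448 cells). There were 2076 and 255 neutrophil-like cells, 93 and 103 endothelial-like cells, and on day 3 also 814 fibro-adipogenic-like cells, the mesenchymal progenitors of muscle, and 204 satellite cell/myoblast-like cells. Levels are UMIs of a gene per 1000000 UMIs (CPM), summed over the cells of a group. Because these libraries count each molecule once at its 3′ end, CPM were not divided by gene length. Ranges in parentheses are 95% intervals (exact Poisson for CPM, exact binomial for shares and ratios) that cover counting error alone.

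The family was abundant: the 9 members together gave 33818 UMIs in cells on day 1 and 65947 on day 3. In monocyte/macrophage-like cells their summed level was 554.8 CPM (547.2 to 562.6) on day 1 and 936.2 CPM (927.2 to 945.3) on day 3, a log2 ratio of 0.75 (0.73 to 0.78), or 1.69-fold. Over all genes with at least 500 UMIs in these cells, the median log2 ratio was 0.35, and after scaling to the median ratio of genes the family's log2 ratio was 0.41. At least 1 family UMI was found in 92.9% of these cells on day 1 and 98.4% on day 3. With every cell thinned to 2000 UMIs the shares were 58.0% and 72.7%, against 3.43% in satellite cell/myoblast-like cells of day 3. Those cells had a higher median depth (44104 UMIs against 14000). Free RNA can be a smaller part of deeper cells, so their share does not measure free RNA in macrophage-like cells. Barcodes of at most 100 UMIs, from which free RNA was read, held the family at 546.5 CPM on day 3.

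Members did not move together. Between days, 4 of the 9 members were at least 2-fold higher on day 3 in monocyte/macrophage-like cells and 0 were at least 2-fold lower, beside 28.7% and 4.96% of 11571 genes with at least 50 UMIs. Ifi209 was no longer past 2-fold, at a log2 ratio of 0.94, after scaling to the median ratio of genes, and 3 members were then higher. The median log2 ratio of the members was 0.94 against 0.47 for all of these genes.

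Ifi213 and Ifi206, whose promoter stretches were nearly identical, were scarce on day 1 and showed the largest differences. Ifi213 was at 2.90 CPM on day 1 (104 UMIs) and 26.6 CPM on day 3 (1170 UMIs), a log2 ratio of 3.19 (2.91 to 3.50), or 9.14-fold. Ifi206 was at 1.95 CPM (70 UMIs) and 15.7 CPM (689 UMIs), a log2 ratio of 3.00 (2.65 to 3.38), or 7.98-fold. Both were far above the 2-fold mark, yet even on day 3 a UMI was seen in only 19.0% of the cells for Ifi213 and 13.2% for Ifi206. Ifi208, the third gene with this promoter stretch, was at 0.335 CPM (12 UMIs) and 6.73 CPM (296 UMIs), a log2 ratio of 4.27 (3.50 to 5.30). Ifi203 and Mndal, 86.6% identical around the motif, had unlike log2 ratios of 0.45 and 1.79. Whether promoter likeness relates to the difference between days was not tested.

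Mndal and Ifi209 followed. Mndal was at 31.5 CPM on day 1 and 109 CPM on day 3, a log2 ratio of 1.79 (1.69 to 1.88). For Ifi209 the levels were 33.3 and 81.3 CPM, a log2 ratio of 1.29 (1.19 to 1.38). Both were detected in a minority of the day 1 cells (22.4% for Mndal, 24.2% for Ifi209) and more widely on day 3 (60.2% and 46.0%).

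Ifi207 and Ifi204 were the most abundant members on both days. Ifi207 was at 162.9 CPM on day 1 and 311.8 CPM on day 3, a log2 ratio of 0.94 (0.89 to 0.98). Ifi204 was at 159.8 and 199.4 CPM, a log2 ratio of 0.32 (0.27 to 0.37). The pair was therefore level on day 1, with overlapping intervals, and apart on day 3, when Ifi207 alone gave 33.3% of the family's UMIs in these cells and Ifi204 21.3%. Ifi203 was at 88.3 and 121 CPM, a log2 ratio of 0.45 (0.39 to 0.52).

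Ifi211 and Ifi205, which share much of their 3′ ends, did not behave alike. Ifi211 was at 52.4 CPM on day 1 and 59.0 CPM on day 3, a log2 ratio of 0.17 (0.08 to 0.26). Ifi205 was the only member lower on day 3, at 21.7 CPM (778 UMIs) on day 1 and 12.5 CPM (551 UMIs) on day 3, a log2 ratio of -0.79 (-0.95 to -0.63). This value depended on the cells taken, and was -0.14 with a stricter call of barcodes. After scaling to the median ratio of genes, Ifi204 and Ifi211 also turned lower on day 3, with log2 ratios of -0.03 and -0.18, while Ifi203 stayed higher at 0.10, so the direction of Ifi204 and Ifi211 depends on the scaling. Outside the members, Aim2 went from 13.05 to 33.3 CPM, a log2 ratio of 1.35 (1.2 to 1.5), Ifi214 from 0.697 to 2.23 CPM, and Ifi202b stayed at 16 UMIs on each day.

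**Figure D1:**
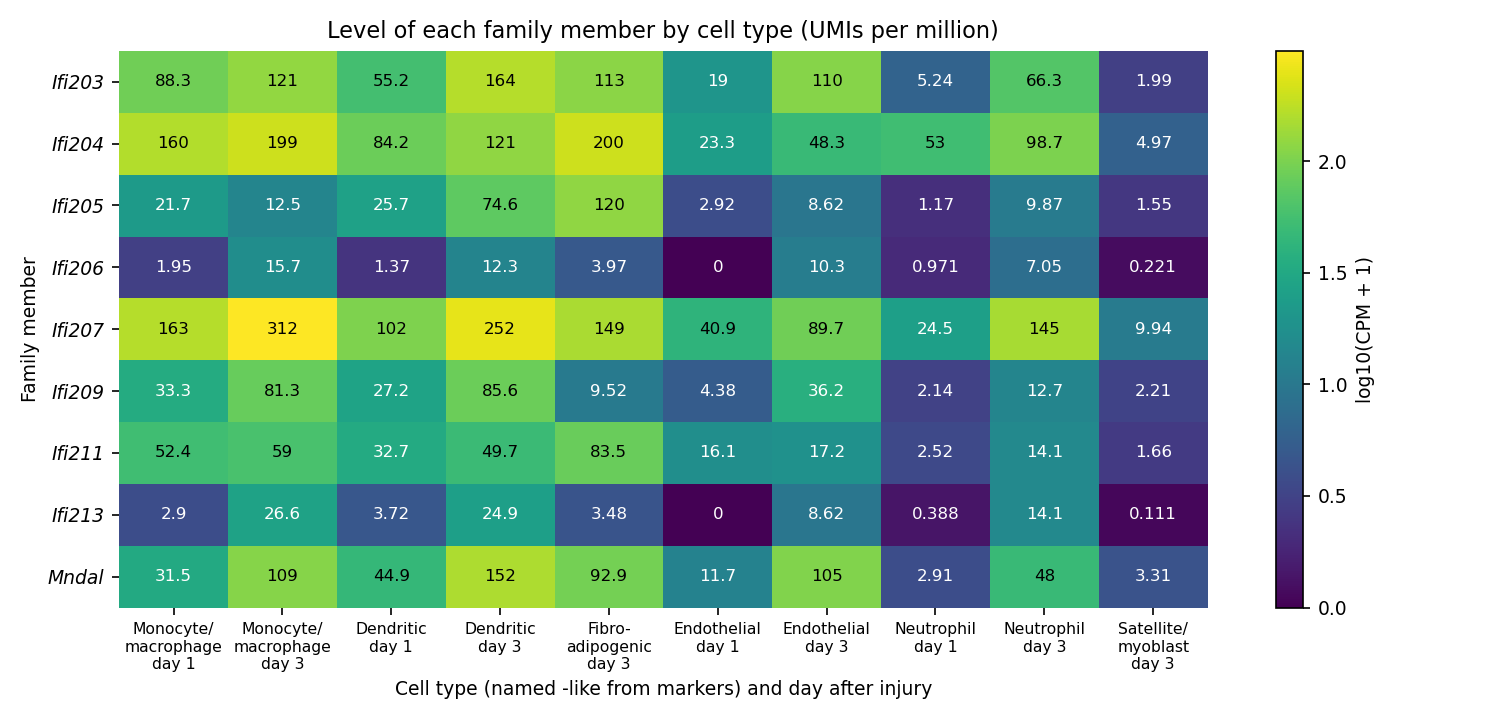
Level of each family member (rows) in each marker-named cell type and day with at least 50 cells (columns), printed as CPM and coloured by log10(CPM + 1). Ifi207 and Ifi204 were the most abundant members in macrophage-like cells, fibro-adipogenic-like cells held 120 CPM of Ifi205, and satellite cell/myoblast-like cells held under 10 CPM of every member.

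Macrophage-like clusters of day 3 differed more than the days did. On day 3 the family summed to 2653 CPM (2612 to 2694) in the Ifit3-led cluster, whose other leading genes included the interferon-induced Ifit2, Rsad2 and Irf7 and the inflammatory monocyte marker Ly6c2. It was 1111 CPM (1072 to 1152) in the Plac8-led cluster, in which Ly6c2 was also a leading gene. The remaining macrophage-like clusters of that day were lower, at 677.1 CPM in the Fcrls-led and 601.4 CPM in the Gpnmb-led cells, the latter with the lipid-handling genes Fabp5 and Trem2 among their leading genes. None of these 4 intervals overlapped. The clusters were formed without the members, but interferon-response genes helped to form them.

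Each of the 9 members was higher in the Ifit3-led cluster than in any other macrophage-like cluster of day 3, with intervals that did not overlap, although the size of the difference varied widely. Against the rest of the macrophage-like cells, Ifi205 was 18.15-fold higher, Ifi213 15.2-fold, Ifi206 13.4-fold, Ifi209 7.70-fold and Ifi211 6.05-fold higher. Mndal was 5.27-fold, Ifi203 4.975-fold and Ifi204 3.75-fold higher. Ifi207 differed least, by 1.91-fold (530.4 CPM in the cluster and 277.5 CPM in the rest). Over all 10 clusters of day 3 with at least 50 cells this cluster also led for 8 of the 9 members. The exception was Ifi205, at 120.4 CPM in the Sfrp2-led fibro-adipogenic-like cells, 74.6 CPM in the dendritic cell-like and 68.3 CPM in the Ifit3-led cluster.

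The Ifit3-led cluster made up 0.766% of macrophage-like cells on day 1 (23 cells) and 19.7% on day 3 (543 cells), and it held 38.5% of the family's UMIs among macrophage-like cells on day 3. Its family level hardly differed between days, at 2663 CPM (2454 to 2885) in the 23 cells of day 1. With this cluster left out, a choice made after its values were seen, the family was at 541.5 CPM on day 1 and 666.4 CPM on day 3, a log2 ratio of 0.30 (0.27 to 0.33). Of the 9 members, 3 were then at least 2-fold higher on day 3 and 1 at least 2-fold lower, beside 28.3% and 5.52% of 11426 genes.

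The cells outside that cluster split the family into members that were higher and members that were lower on day 3. Higher were Ifi206 at a log2 ratio of 1.94 (1.51 to 2.40), Ifi213 at 1.93 (1.59 to 2.29), Mndal at 1.26 (1.16 to 1.37), Ifi207 at 0.78 and Ifi209 at 0.44. Ifi205 fell from 21.1 to 3.76 CPM, a log2 ratio of -2.48 (-2.75 to -2.23), and Ifi211 fell from 51.6 to 35.0 CPM, a log2 ratio of -0.56 (-0.66 to -0.46). Ifi203 and Ifi204 differed little, at -0.13 (-0.20 to -0.06) and -0.11 (-0.17 to -0.06). These cells came from different clusters on each day. In the Plac8-led cluster, which held 109 cells on day 1 and 314 on day 3, the family was at 705.4 and 1111 CPM with intervals apart, while Ifi204 was at 222.2 and 271.1 CPM, Ifi203 at 120.2 and 133.9 CPM and Ifi211 at 66.4 and 55.5 CPM, each with overlapping intervals.

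**Figure D2:**
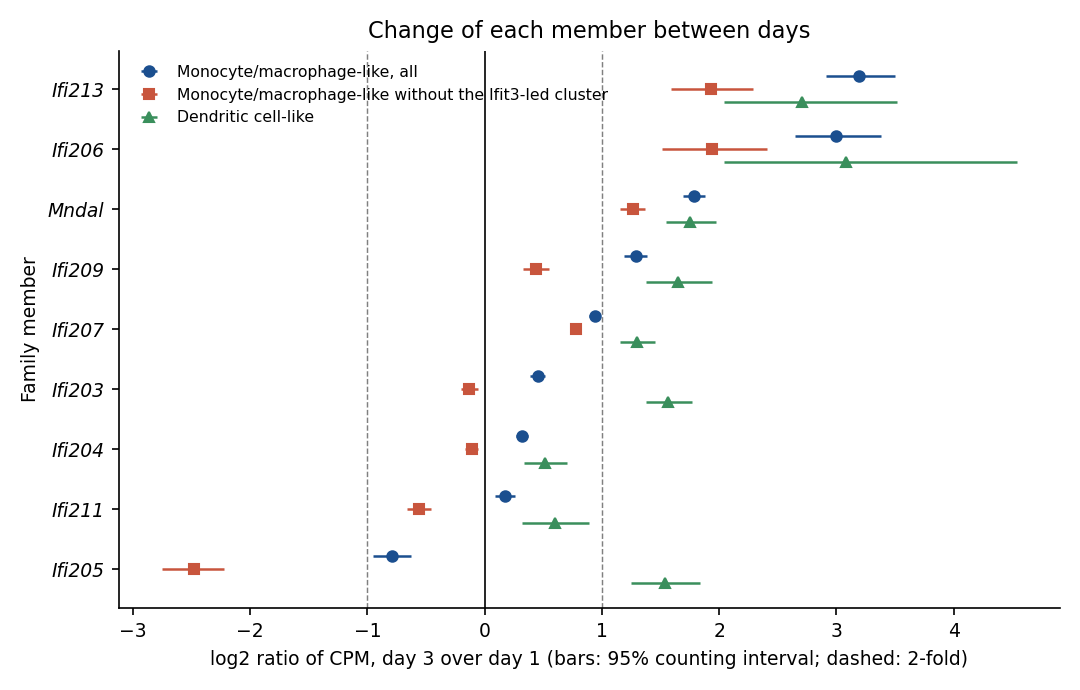
Log2 ratio of CPM, day 3 over day 1, for each member in all monocyte/macrophage-like cells (circles), in these cells without the Ifit3-led cluster (squares) and in dendritic cell-like cells (triangles), with 95% counting intervals as bars and dashed lines at 2-fold. Ifi205 lies at -0.79, -2.48 and 1.54 in that order, and Ifi213 and Ifi206 lie beyond 2-fold in all 3 groups of cells.

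**Figure D3:**
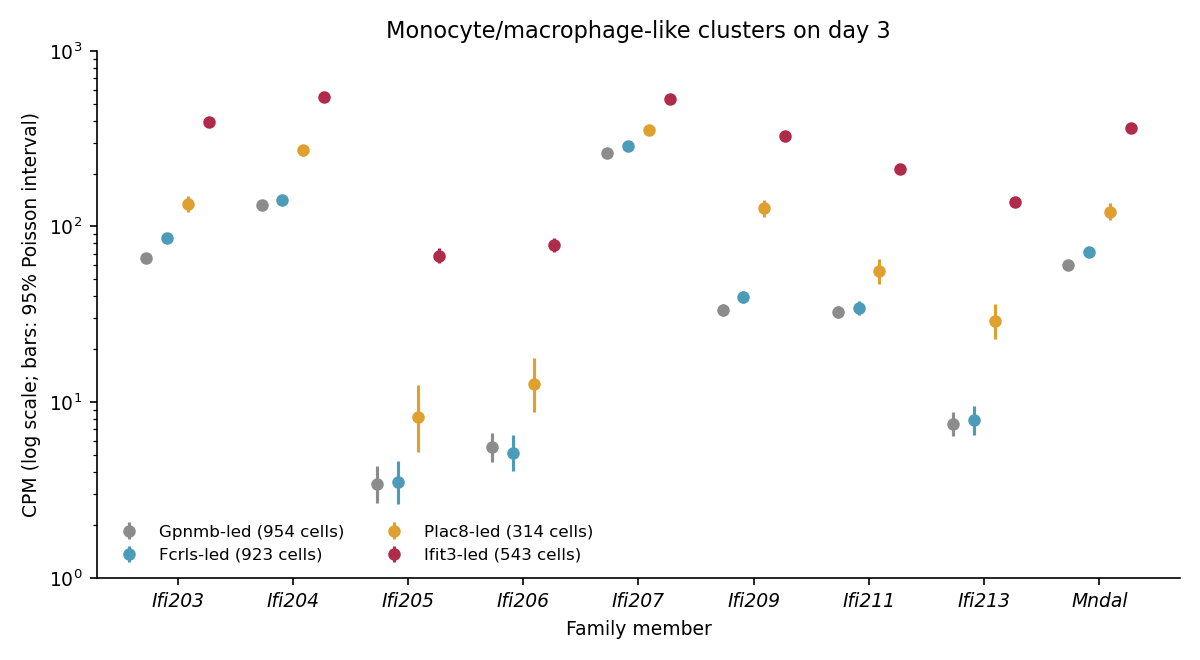
CPM of each member on a log axis in the 4 monocyte/macrophage-like clusters of day 3 with at least 50 cells, with exact 95% Poisson intervals as bars. The Ifit3-led cells are highest for every member, from 68.3 CPM for Ifi205 to 544.1 CPM for Ifi204, and the gap to the other clusters is smallest for Ifi207.

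On day 1 the order of the clusters was flatter. Among clusters with at least 50 cells the Plac8-led cells were highest for the family at 705.4 CPM (650.8 to 763.4), followed by the unnamed Ifitm6-led cells at 603.7 CPM (583.0 to 624.9). The Serpinb2-led cells, with the inflammatory genes Il1a, Il1b and Cxcl3 in the lead, were at 568.8 CPM and the Cd163-led cells at 498.3 CPM. For 8 of the 9 members the intervals of the highest and the second cluster overlapped. The exception was again Ifi205, at 71.3 CPM (67.5 to 75.2) in an unnamed cluster led by Cxcl5 and at 27.8 CPM (25.5 to 30.3) in the Serpinb2-led cells. That Cxcl5-led cluster (633 cells on day 1) had all 10 fibro-adipogenic markers and scored highest for them, but a tenocyte marker, Thbs4, was among its leading genes. Within macrophage-like cells of day 1, Ifi205 was at 27.8 CPM in the Serpinb2-led and 12.8 CPM in the Cd163-led cells, and Ifi203 was at 101.7 and 64.8 CPM, whereas Ifi207 hardly differed (159.4 and 164.3 CPM).

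The relation to interferon was also measured cell by cell. Each macrophage-like cell was thinned to 2000 UMIs, and the UMIs of 26 interferon-response genes, none of them a member, were counted. These genes weigh unevenly in the count. Before thinning, Ifi27l2a gave the most UMIs of the list on both days (21158 on day 1 and 54383 on day 3). Ifit3 gave 86 and 2498. The classes therefore rest more on Ifi27l2a than on any other gene of the list. Cells with 6 or more such UMIs made up 11.2% of 2941 cells on day 1 and 42.01% of 2742 cells on day 3, and cells with 0 made up 28.8% and 7.04%. The classes are ranges of a count, not cell types: 90 cells on day 1 and 131 on day 3 stood exactly at 6, and 105 and 197 at 5.

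On day 1 the family was at 439.7 CPM in cells with 0 interferon-response UMIs, 504.2 CPM with 1 to 2, 635.6 CPM with 3 to 5 and 1046 CPM with 6 or more. The corresponding levels on day 3 were 440.4, 525.7, 746.7 and 1892 CPM. The family thus rose with the interferon-response count on both days and was at a like level on both days in cells without such UMIs. On the log2 scale, day 3 was 0.23 (0.10 to 0.37) higher with 3 to 5 such UMIs and 0.85 (0.74 to 0.97) higher with 6 or more, a class with no upper limit in which counts are not matched between days. Between the highest and lowest class the log2 ratio was 1.25 (1.10 to 1.40) on day 1 and 2.10 (1.88 to 2.33) on day 3.

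The steepness of this rise differed among members. The lowest class of day 3 held few UMIs of most members, so the ratios of single members there are imprecise, and no count of members past 2-fold is given. Ifi209 had a log2 ratio of 2.58 (1.95 to 3.27) on day 1 and 2.98 (2.16 to 4.12) on day 3, and Mndal of 2.39 and 3.01. Ifi203 went from 23.3 CPM in the lowest class of day 3 (9 UMIs) to 280.8 CPM in the highest (647 UMIs). Ifi207, the member with most UMIs in both lowest classes, was at 0.74 (0.45 to 1.02) on day 1 and 0.82 (0.52 to 1.14) on day 3. Ifi205 was at 0.81 (0.00 to 1.57) on day 1.

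Ifi206 and Ifi213 were concentrated in the highest class. On day 3 the lowest class held 0 UMIs of Ifi206, which allows up to 3 counts, and 1 UMI of Ifi213, whereas the highest class held 120 and 198, or 52.1 and 85.9 CPM. Ifi205 took another course. It was at 21.9, 22.5, 26.4 and 38.0 CPM from the lowest to the highest class on day 1, and at 7.77, 0.778, 2.65 and 40.8 CPM on day 3, the first 3 of these from 3, 1 and 4 UMIs. The log2 ratio between days for Ifi205 was 0.08 (-0.55 to 0.80) in the highest class, and its interval in the lowest class (-3.83 to 0.17) also included 0. In the classes between, Ifi205 was lower on day 3. Its log2 ratio was -4.29 (-10.19 to -2.32) with 1 to 2 UMIs and -3.17 (-5.28 to -1.81) with 3 to 5. The day 3 levels there were below 3.04 CPM, which is 5% of the Ifi205 level in free RNA, so the size of these differences is uncertain.

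Ifi207 was higher on day 3 at every interferon-response count, by 0.70, 0.78, 0.78 and 0.78 on the log2 scale from the lowest to the highest class. Ifi203, Ifi204 and Ifi211 were lower on day 3 in each of the 3 lower classes and higher in the highest class, where their log2 ratios were 0.74, 0.62 and 0.76. Of these lower values, the intervals of Ifi203 with 3 to 5 UMIs and of Ifi204 with 0 UMIs included 0.

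**Figure D4:**
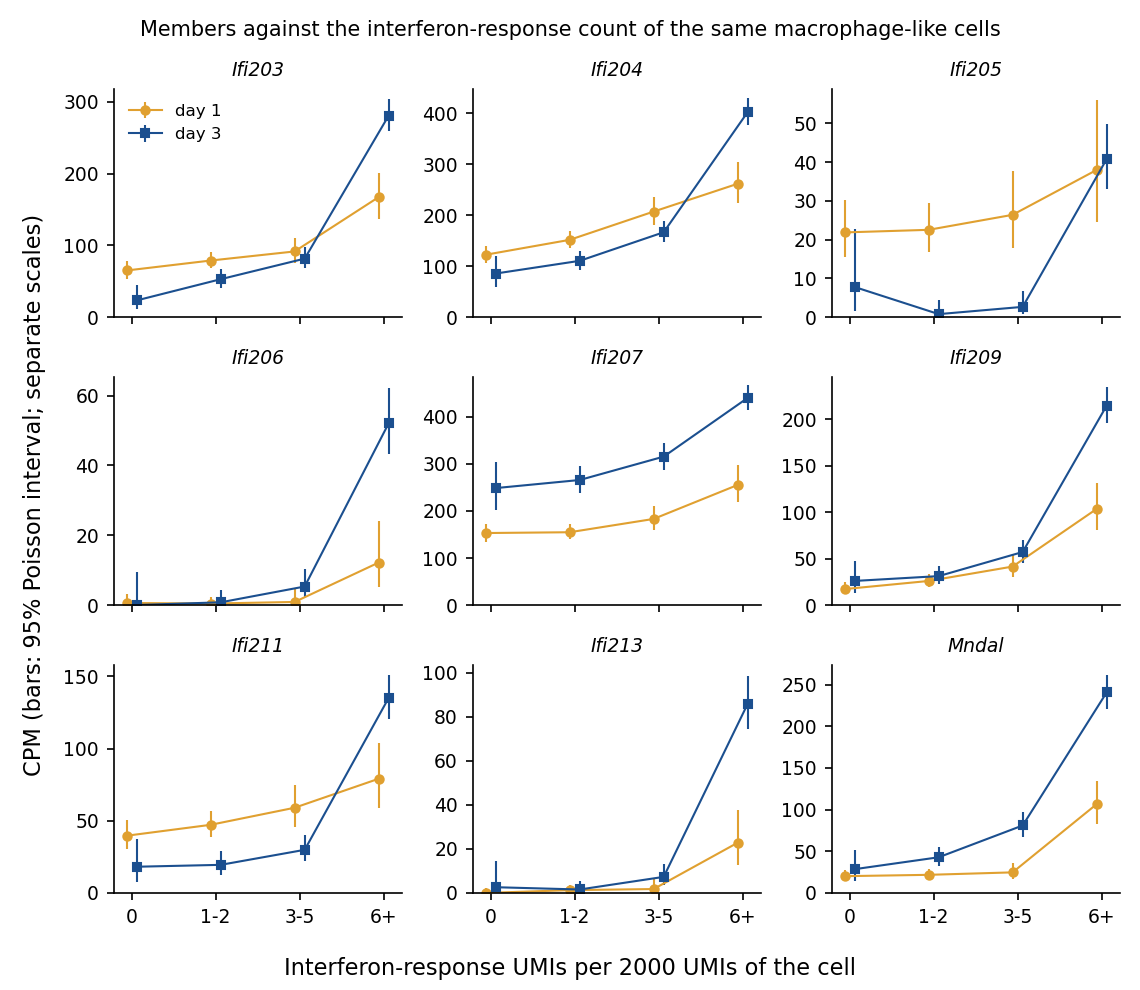
CPM of each member in monocyte/macrophage-like cells thinned to 2000 UMIs, by the number of interferon-response UMIs in the cell (0, 1-2, 3-5, 6 or more), on day 1 (circles) and day 3 (squares), with exact 95% Poisson intervals and a separate linear scale from 0 for each member. Ifi206 and Ifi213 stay near 0 below the highest class, Ifi205 on day 3 is low in the first 3 classes and at 40.8 CPM in the highest, and Ifi207 lies higher on day 3 throughout.

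Fixed lists of related genes put these values in context. Of 26 interferon-response genes, 23 were at least 2-fold higher on day 3 in macrophage-like cells and 0 were lower, with a median log2 ratio of 1.93. The highest were Ifi44, for which day 1 held 0 UMIs and day 3 held 145, Ifit2 at 5.25 and Ifit3b at 4.85. Day 1 held 32 UMIs of Ifit2 and 13 of Ifit3b, so all 3 genes reached 50 UMIs only through day 3. The lowest were Oas1a at -0.19, Cxcl10 at 0.23 and Isg15 at 0.85. Of the nucleic acid sensing list, 19 of 21 genes had at least 50 UMIs; 6 were at least 2-fold higher, 2 were lower and the median was 0.66, with a share of higher genes close to the 28.7% of all genes in these cells. The highest of them were Ddx58 (RIG-I, a sensor of viral RNA) at 1.81, the inflammasome protease Casp1 at 1.56 and Zbp1, a sensor of Z-form nucleic acid, at 1.47. The lowest were the inflammasome sensor Nlrp3 at -2.82, the kinase Ikbke at -1.45 and the pore-forming Gsdmd at -0.25. Pycard, the adaptor of Aim2, was at 163.8 and 258.5 CPM, Cgas, which makes the messenger that activates STING, at 13.5 and 16.6 CPM, and Tmem173, which encodes STING, at 20.3 and 33.2 CPM. Of 12 measured receptor and signalling genes, 4 were at least 2-fold higher and 1 lower, again a share of higher genes close to that of all genes, with a median of 0.09. Stat2 and Irf9, whose products act in type I interferon signalling, were at 1.34 and 1.11, whereas Irf1 was at -1.16, Jak2 at -0.73 and Ifnar2, a chain of the type I interferon receptor, at -0.45.

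Dendritic cell-like cells showed a larger difference between days than macrophage-like cells. The family was at 377.5 CPM (360.8 to 394.7) on day 1 and 935.5 CPM (909.4 to 962.2) on day 3, a log2 ratio of 1.31 (1.23 to 1.39). Of the 9 members 7 were at least 2-fold higher on day 3 and 0 lower, beside 15.6% and 3.66% of 8522 genes, and all 9 intervals lay above 0. Ifi206 and Ifi213, of which day 1 held 7 and 19 UMIs, reached 50 UMIs only through day 3. Ifi203 went from 55.2 to 163.8 CPM and was then, with Mndal at 151.7 CPM, higher than Ifi204 at 120.7 CPM, which was not so in macrophage-like cells. Ifi205 rose here, from 25.7 CPM (131 UMIs) to 74.6 CPM (387 UMIs), a log2 ratio of 1.54 (1.25 to 1.84), in the opposite direction to macrophage-like cells. A UMI of Ifi205 was nevertheless seen in 20.3% of dendritic cell-like cells on day 3 and 17.7% on day 1. On the thinned counts the shares were 9.93% and 3.52%.

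Fibro-adipogenic-like cells carried the family at a level near that of macrophages but in another mixture. On day 3 the summed level was 775.8 CPM (764.7 to 787.0), or 82.9% of the macrophage-like level, and a family UMI was found in 98.4% of cells, or 70.2% after thinning. Ifi204 was the most abundant member at 200.4 CPM, followed by Ifi207 at 148.6, Ifi205 at 120.4 (116.1 to 124.8) and Ifi203 at 113.0 CPM (108.8 to 117.3), whose intervals overlapped narrowly. Mndal was at 92.9 and Ifi211 at 83.5 CPM, while Ifi209 (9.52 CPM), Ifi206 (3.97 CPM) and Ifi213 (3.48 CPM) were scarce. Only 12 such cells were found on day 1, so no comparison between days is drawn from them. The family in macrophage-like cells was 1.07 above theirs on the log2 scale on day 1 and 0.27 on day 3. The day 1 value leaves out the unnamed Cxcl5-led cluster (633 cells), which scored highest for fibro-adipogenic markers. That cluster held the family at 438.2 CPM, or 79.0% of the macrophage-like level of day 1.

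Relative to macrophage-like cells of the same day, Ifi205 stood at 961% in fibro-adipogenic-like cells, Ifi211 at 141.5%, Ifi204 at 100.5%, Ifi203 at 93.4%, Mndal at 85.3% and Ifi207 at 47.7%. Ifi206 was at 25.4%, Ifi213 at 13.1% and Ifi209 at 11.7%. For comparison, 5 genes typical of macrophages were measured in the same cells: Tyrobp was at 14.7%, Fcer1g at 17.9%, Lyz2 at 13.6% and Ctss at 12.5% of the macrophage-like level. Cd74, the MHC class II chaperone that was also on this list, was at 74.7%. However, Cd74 was at 14190 CPM in dendritic cell-like cells of day 3 and 248.2 CPM in macrophage-like cells, so it does not mark macrophage RNA alone. Ifi213 and Ifi209 were within or below the range of the first 4 genes, Ifi206 was a little above it, and the part of free RNA in these levels was not tested. Ifi205, Ifi211, Ifi204, Ifi203 and Mndal were above all 5 genes, and Ifi207 was above the first 4 but below Cd74. In the Cxcl5-led cluster of day 1 the order was similar at the top, with Ifi205 at 329%, Mndal at 130%, Ifi211 at 107% and Ifi204 at 93.2% of the macrophage-like level, beside 8.79% for Tyrobp, 7.25% for Lyz2 and 34.6% for Cd74. Ifi206 (6 UMIs) and Ifi213 (5 UMIs) were at 16.5% and 9.23%.

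**Figure D5:**
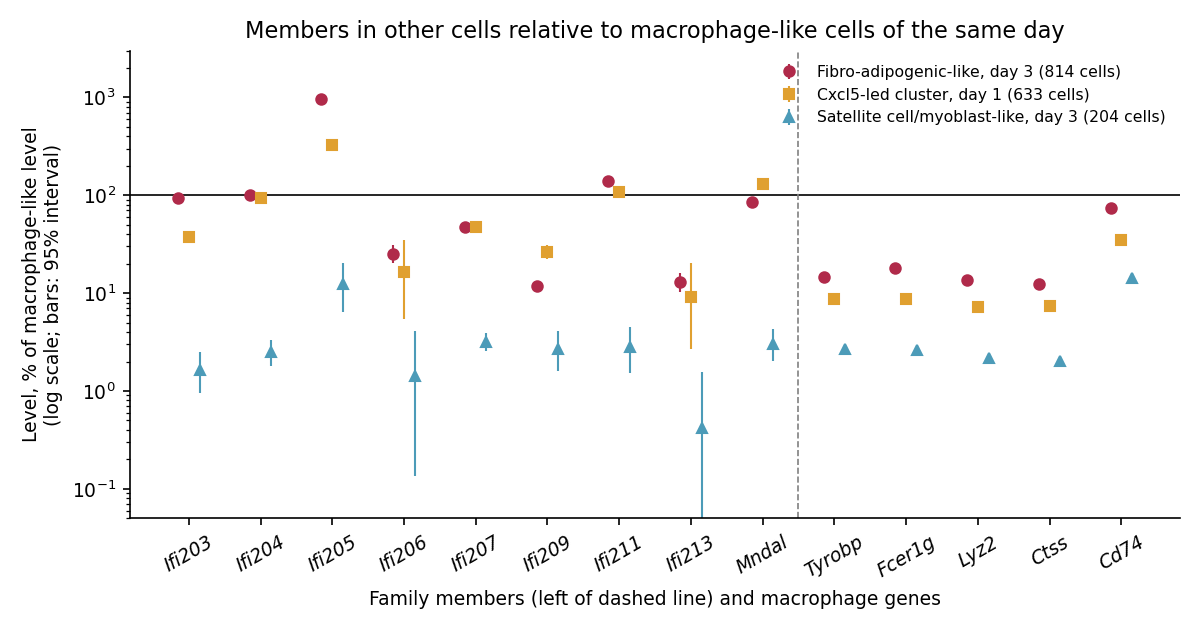
Level of each member, and of the macrophage genes Tyrobp, Fcer1g, Lyz2, Ctss and Cd74 right of the dashed line, as a percentage of the level in monocyte/macrophage-like cells of the same day, on a log axis with 95% counting intervals. Ifi205 lies at 961% in fibro-adipogenic-like cells of day 3 and 329% in the Cxcl5-led cluster of day 1, and in satellite cell/myoblast-like cells the summed family was at 2.77%, with Tyrobp at 2.67%.

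Satellite cell/myoblast-like cells had the lowest levels. Their summed family level was 26.0 CPM (22.8 to 29.5), or 2.77% of the macrophage-like level, beside 2.67% for Tyrobp, 2.61% for Fcer1g and 14.4% for Cd74. Ifi204 was at 4.97 CPM (45 UMIs) and Ifi207 at 9.94 CPM (90 UMIs). Apart from Ifi205, at 12.3% from 14 UMIs, every member was at no more than 3.19% of the macrophage-like level, so expression by these cells was not separable from free RNA.

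Neutrophil-like and endothelial-like cells rest on fewer UMIs. In neutrophil-like cells the family was at 92.8 CPM (478 UMIs in 2076 cells) on day 1 and 416.1 CPM (295 UMIs in 255 cells) on day 3, a log2 ratio of 2.17 (1.95 to 2.38). Ifi204 gave 57.1% of the family's UMIs there on day 1, against 28.8% in macrophage-like cells. Lyz2, Ctss and Cd74, which were well below the macrophage-like level in neutrophil-like cells of day 1, stood higher relative to it on day 3. Lyz2 went from 8.52% to 26.0% of the macrophage-like level, Ctss from 10.2% to 32.4% and Cd74 from 31.4% to 128%. Tyrobp went from 182.9% to 157.7% and Fcer1g from 95.9% to 85.7%. Both were near or above the macrophage-like level already on day 1, so they cannot mark macrophage RNA in neutrophil-like cells. The part of macrophage RNA in the difference was not tested. In endothelial-like cells the family was at 118.2 CPM (81 UMIs) and 434.5 CPM (252 UMIs), and Mndal was at 11.7 CPM (8 UMIs) and 105.2 CPM (61 UMIs). Macrophage genes went in both directions between the days in these cells: Tyrobp stood at 28.5% and 46.4% of the macrophage-like level, Fcer1g at 28.9% and 31.9% and Cd74 at 36.1% and 70.9%, while Lyz2 stood at 8.69% and 5.62% and Ctss at 16.6% and 12.5%. T and NK cell markers scored second in this cluster, and the part of other cells in the difference was not tested.

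Single cells carried several members at once. After thinning, 3 or more different members were seen in 7.11% of macrophage-like cells on day 1 and 21.5% on day 3, in 24.6% of dendritic cell-like cells on day 3 and in 15.2% of fibro-adipogenic-like cells on day 3, with at most 9 in 1 cell. The mean number of members per macrophage-like cell was 0.926 and 1.59. The differences in CPM above therefore came with more members per cell of equal depth on day 3.

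Correlations were taken across 19 groups of at least 50 cells, each a cluster on 1 day. These groups do not overlap but share libraries. The correlation of each member with the sum of the others, as log2(CPM + 1), ranged from 0.66 for Ifi205 to 0.95 for Ifi203. Ifi206 and Ifi213 were the closest pair (r = 0.97), followed by Ifi203 and Mndal (r = 0.95), which share exon bases, and Ifi205 and Ifi206 were the least alike (r = 0.40). Among 10379 genes with at least 500 UMIs, those most like the summed family were Yipf1 (r = 0.94), Zbp1 (r = 0.91), Ssbp4 (r = 0.91), Tmem219 (r = 0.91) and Ttc39c (r = 0.91). These correlations describe the groups and carry no test.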

How the data were processed

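The authors deposited unnormalized UMI counts of every gene in every barcode for 10x Genomics 3′ libraries, made with Cell Ranger (version 5.0.0 per the submitters' processing notes, while the file headers name an earlier major version) on mm10. No cells had been called. The libraries held 74852240 and 102565783 UMIs.

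Cells were the 7367 (day 1) and 6640 (day 3) top barcodes with at least 1000 UMIs, 200 genes and at most 7.5% mitochondrial UMIs. They were clustered with SCTransform (Seurat 5.3.0, sctransform 0.4.2, R 4.3.3; 3000 variable features without members or markers, 10 PCs, resolution 0.8), regressing out the cell cycle difference and the mitochondrial share. A cluster took the marker list with the highest mean score if 3 markers were in at least 10% of its cells and its 10 leading genes held no more markers of any other list; this rule was set after clusters were seen. Sums, intervals, thinning and ratios (0.5 added to each count; tested on simulated data) used Python 3.11.15, numpy 2.4.6, scipy 1.17.1 and pandas 2.3.3. Doublets were kept, since Scrublet in scanpy 1.11.5 marked only 2 and 0; an alternative removed the 363 and 171 highest scores. Free RNA was read from barcodes of at most 100 UMIs. Precision is set by depth, and intervals cover counting error only.

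Named are the members, other family genes, the 3 highest and 3 lowest genes of each list with at least 50 UMIs, and the 5 genes most like the family. One result that this rule would name is not reported here. Members and lists were chosen with earlier results of these data known. Alternatives changed the cell call, mitochondrial limit, clustering, naming, doublets, free RNA, depth and scaling, each in turn.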

Additional observations from a re-analysis of the deposited data

Results flagged for a closer look

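Ifi205 differed between days in opposite directions in neighbouring myeloid cells: its log2 ratio of day 3 over day 1 was 1.54 in dendritic cell-like cells and -0.79 in monocyte/macrophage-like cells. Each counting interval lay wholly on its own side of 0, and with 1 library per day the difference between the cell types was not tested. The macrophage-like value was -0.14 under the stricter call of barcodes, -0.41 with log-normalization before clustering and also after thinning, -0.43 as a mean of per-cell CPM, -1.10 with free RNA subtracted, -1.14 with median-of-ratios scaling and -2.48 without the Ifit3-led cluster. The dendritic cell-like value was not recomputed under the alternatives. With log-normalization before clustering, the dendritic cell-like cluster held 116 and 240 cells on day 1 and day 3 instead of 402 and 448. Ifi205 and Ifi211 share 59.4% of the 90-base windows at their 3′ ends, and Ifi211 was higher on day 3 in both types (0.60 and 0.17).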

How the results depend on the processing

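No paired analysis was possible because each day had 1 library from different mice. The family's log2 ratio of day 3 over day 1 in macrophage-like cells, 0.75, was 0.87 for barcodes above 10% of the UMI count at the 99th percentile, 0.72 by each cell's highest marker score, 0.97 as a mean of per-cell CPM, 1.01 after thinning, 0.41 with median-of-ratios scaling and 0.30 without the Ifit3-led cluster, the last chosen after seeing the data. It was positive under all 11 alternatives, the cause of the spread was not tested, and depth limits Ifi206 and Ifi213 on day 1 most. Members at least 2-fold higher numbered 3 to 5 against 4, the 3 with median-of-ratios scaling, where Ifi209 was at 0.94, and without the Ifit3-led cluster. Members lower went from 0 to 1 with free RNA subtracted, with median-of-ratios scaling and without the Ifit3-led cluster. Median-of-ratios scaling turned Ifi204 to -0.03 and Ifi211 to -0.18, and leaving out the Ifit3-led cluster turned Ifi203 to -0.13, Ifi204 to -0.11 and Ifi211 to -0.56. The log2 ratio of macrophage-like over fibro-adipogenic-like cells, 1.07 on day 1 from 12 cells, was 2.71 under the other call of barcodes, 1.69 without doublets and 0.28 by marker score; the day 3 value, 0.27, was 0.21, 0.17 by marker score, 0.43 as a mean of per-cell CPM and 0.50 after thinning, the first under the other call of barcodes. The interferon contrast of day 1, 1.25, was 1.45 under that call. Without a minimum of UMIs, 37.0% of genes were at least 2-fold higher on day 3 and 10.2% lower.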
